A study of Mus musculus with 8 samples.

Results

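The Rab genes encode small GTPases that direct vesicle traffic. A Rab protein is held in the cytosol by a GDP dissociation inhibitor and is anchored in a membrane by lipid tails that the Rab geranylgeranyl transferase adds. An exchange factor (GEF) loads it with GTP there, so that it recruits effectors such as tethers and motors, and a GTPase-activating protein (GAP) switches it off. Each organelle carries its own set of Rab proteins. Fibroblasts use the general set for secretion, endocytosis and recycling, while several other Rab proteins are known for secretory, epithelial, blood or pigment cells.

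The genes were found by name among the protein-coding genes of GENCODE M21 on mouse chromosomes 1 to 19, as Rab followed by a number and an optional letter. There were 55 of them among 20722 genes. For each gene the body of the longest protein-coding transcript was set against 4 lists of H3K36me3 peaks. H3K36me3 is a histone mark that is laid down behind elongating RNA polymerase, mostly over the middle and the end of transcribed genes. Peaks report the mark and not the amount of RNA or protein.

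The libraries came from i4F mouse embryonic fibroblasts (MEFs), which carry a doxycycline-inducible cassette of OCT4, SOX2, KLF4 and MYC (OSKM). All cells carried the cassette, all were from Clone 1, the cells of a single embryo, and all were collected 72 h after transfer to iPSC medium. The 4 conditions were no addition (MEF), 2 µM vitamin B12 (MEF B12), 1 µg/ml doxycycline (OSKM), and doxycycline with vitamin B12 (OSKM B12). The unit of the doxycycline dose is from the labels, while the study's methods give mg/ml, so the dose is uncertain. No sort of the cells is described, so reprogramming and other cells under doxycycline were measured together, and fewer cells with the mark cannot be told apart from less of it per cell. A condition was represented by 1 H3K36me3 library with its input, so no difference below has a replicate check or a p-value. A difference between conditions therefore cannot be told apart from a difference between immunoprecipitations. Ranges given as 95% cover counting error only. The H3K36me3 libraries held 29046913 to 33399267 tags, and the peaks on chromosomes 1 to 19 spanned 91.8 Mb in OSKM against 150 to 163 Mb in the other 3 libraries. Among fibroblast markers 9 of 10 were marked in each library, with Twist1 at 0. The 4 epithelial markers were at 0 in all 4 libraries, and of 3 endothelial markers only Kdr held a peak, over 0.903% of its body in OSKM B12. Of 3 blood markers, Cd68 was marked in every library, and Ptprc was at 0. Of 4 neuronal markers, Tubb3 was marked in all libraries but OSKM. The part of other cells in the values below was not tested.

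Closely related Rab genes can be followed at the same point of the protein. The G3 box, a conserved loop that contacts the bound nucleotide, was found in the translated coding sequence of 51 of 55 genes, and it lay within 1 exon in 33. In the sequences below, shown because paralogues with like letters differed in whether a peak covered them, capitals mark the codons of the box and lower case the coding bases on both sides. They were read 5′ to 3′ on the strand of the gene from RefSeq's copy of GRCm38.p6, the assembly called mm10.
Rab5a (chr17:53497568-53497615, plus strand, exon 3): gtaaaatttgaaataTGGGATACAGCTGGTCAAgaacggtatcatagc
Rab5b (chr10:128683258-128683305, minus strand, exon 3): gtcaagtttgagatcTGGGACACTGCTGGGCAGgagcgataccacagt
Rab5c (chr11:100718494-100718541, minus strand, exon 3): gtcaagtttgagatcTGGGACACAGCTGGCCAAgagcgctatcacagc
Rab6a (chr7:100629666-100629713, plus strand, exon 4): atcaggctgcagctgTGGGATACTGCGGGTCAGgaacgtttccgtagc
Rab6b (chr9:103161064-103161111, plus strand, exon 4): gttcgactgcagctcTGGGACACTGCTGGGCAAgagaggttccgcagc
Rab11a (chr9:64728245-64728292, minus strand, exon 2): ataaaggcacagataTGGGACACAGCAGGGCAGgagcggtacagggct
Rab11b (chr17:33749793-33749840, minus strand, exon 2): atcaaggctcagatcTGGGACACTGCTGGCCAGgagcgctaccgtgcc
Rab17 (chr1:90961174-90961221, minus strand, exon 3): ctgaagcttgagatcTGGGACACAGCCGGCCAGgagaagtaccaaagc

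Over these 48 bases Rab5b and Rab5c were identical at 87.5% of positions, Rab5a and Rab5b at 72.9%, Rab11a and Rab11b at 79.2%, and Rab6a and Rab6b at 72.9%. The boxes of Rab5b, Rab5c and Rab11b lay in a peak in all 4 libraries. That of Rab5a lay in a peak in MEF alone, that of Rab6a in every library but OSKM, and that of Rab11a in every library but OSKM B12. The peak after the start of the Rab5a box began at 53497946 in MEF B12 and 53497806 in OSKM B12. The first Rab11a peak, whose edge lies near the box, began 9273, 9230, 9444 and 9584 bases after the gene start in MEF, MEF B12, OSKM and OSKM B12. For Rab11a, and for Rab5a in MEF B12 and OSKM B12, the difference cannot be told apart from a small shift of a peak edge. In OSKM the next peak lay further from the Rab5a box. No library had a peak over the boxes of Rab6b and Rab17. Of the 33 boxes, 21 in MEF were inside a peak, as were 20 in MEF B12, 16 in the OSKM library and 19 in OSKM B12. No share over all genes was computed for such a stretch.

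Most Rab genes carried the mark. A gene was called marked where peaks covered at least 10% of its body. By this limit 39 of 55 Rab genes (70.9%) were marked in at least 1 library, beside 46.4% of all protein-coding genes, and 31 (56.4%) were marked in all 4, beside 35.9%. The MEF library had 36 marked Rab genes (65.5%, beside 43.3% of all genes) and the MEF B12 library 39 (70.9%, beside 44.7%). The OSKM library had 31 (56.4%, beside 36.3%) and the OSKM B12 library 36 (65.5%, beside 44.9%). The OSKM count depended on weak peaks. When a peak needed a −log10 q of 5 or more, 5 Rab genes were marked in OSKM (9.09%, beside 6.69% of all genes). The other libraries then had 24 to 27 (43.6% to 49.1%, beside 27.3% to 31.9%). The 5 in OSKM were Rab35, Rab4b, Rab34, Rab11b and Rab1b, named here after their values were seen. The marked Rab genes had a median body of 22.7 kb, close to the 20.7 kb of all marked genes, and the other 16 Rab genes had a median of 43.8 kb.

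The 11 Rab genes with no peak base in any library were Rab3b, Rab3c, Rab27a, Rab27b, Rab37 and Rab44 of regulated secretion, Rab6b and Rab39 of the Golgi group, Rab17 of recycling in epithelia, Rab38 of melanosomes, and Rab42. No enrichment was detectable over them at this depth. Peaks stayed below the limit in all libraries over 5 more, Rab28, Rab19, Rab20, Rab40b and Rab15. The nearest below it was Rab28, a Rab of the cilium, with at most 4.48% of its body covered, followed by Rab19 with at most 4.12%. The nearest above it were Rab30 and Rab31, with at most 10.7% and 11.1%. Rab15 lies wholly within the annotated body of Fntb.

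The split ran between close relatives. Of the synaptic and secretory Rab3 genes, Rab3a and Rab3d were marked in all 4 libraries and Rab3b and Rab3c held no peak. Rab6a, which acts within the Golgi, was marked in all 4 and Rab6b held none. Rab40c, which recruits a ubiquitin ligase through its SOCS box, was marked in all 4, while Rab40b reached at most 2.35%. All members of the Rab1, Rab2, Rab4, Rab5 and Rab11 pairs or trios were marked in all 4 libraries. Regulated secretion had the smallest share of genes marked in at least 1 library among the larger groups, with 3 of 9. The endoplasmic reticulum (ER) and Golgi had 11 of 14 and early endosomes 6 of 7. Recycling and exocytosis had 12 of 14, and late endosomes and lysosomes 5 of 6. Over all protein-coding genes this share was 46.4%.

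The height of the mark was taken as a density, the peak pileup per 1000000 tags summed over the body and divided by its length, with bases outside peaks at 0. The pileup is an average over a whole peak, so a peak that runs past a gene carries signal from beyond it. The mean covered share of the 39 marked Rab genes was 43% in MEF and 45.6% in MEF B12, 28.4% in the OSKM library and 46% in OSKM B12, and the mean density was 0.256, 0.304, 0.138 and 0.323 in this order. All 9619 marked genes stood at mean covered shares of 47.5%, 50.4%, 32.5% and 50.9%. The order of Rab genes by density was close to the same in every library, with Spearman's rho between 0.91 and 0.98 over 39 genes for the 6 pairs of libraries, as a description of libraries that share 1 embryo.

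**Figure D1:**
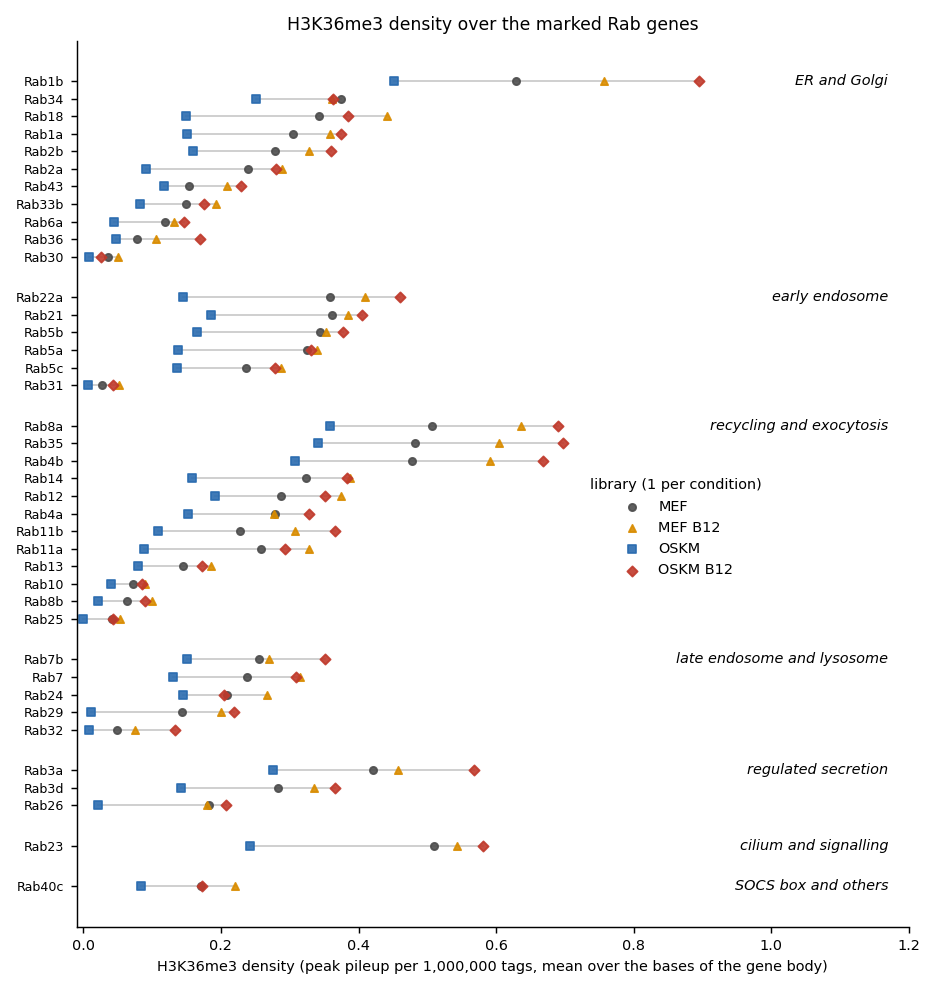
H3K36me3 density of the 39 marked Rab genes, 1 gene per line, grouped by role and ordered by mean density, with 1 point per library (x axis, pileup per 1000000 tags averaged over the gene body). OSKM (blue squares) is the lowest point on every line, and Rab1b reaches the highest density, 0.895 in OSKM B12.

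Among the ER and Golgi genes, Rab1b, which controls transport from the ER to the Golgi, had the highest density of all Rab genes. It lies on chromosome 19 between 5099205 and 5107072. Its density was 0.629 in MEF, 0.757 with vitamin B12, 0.451 with doxycycline, and 0.895 with both, the order used from here on. A single peak covered 74.9%, 74.5%, 76.3% and 77.2% of the body, so the width stayed while the height differed. In OSKM 96.4% of all marked genes had a lower density than Rab1b. It was the only marked Rab gene whose covered share, taken over the whole body, was not lower in OSKM than in MEF.

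Its paralogue Rab1a, with the same role, had densities of 0.304, 0.358, 0.15 and 0.374, and covered shares of 47.1%, 45%, 31.1% and 49%. Its peaks ran 15198, 15201 and 15302 bases past the gene end in MEF, MEF B12 and OSKM B12, and 0 in OSKM. The next gene, Cep68, lies 180 bases beyond that end, so the Rab1a densities cannot be assigned to Rab1a alone. Rab34, a Golgi Rab that also acts in ciliogenesis, had 0.375, 0.361, 0.251 and 0.363. Rab18, known from lipid droplets and the ER, had 0.343, 0.442, 0.15 and 0.385. OSKM was lowest for each of the 3, and Rab34 alone was not higher with vitamin B12 in MEF.

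Rab2a, of the Golgi, had densities of 0.24, 0.289, 0.0911 and 0.28, the OSKM density being 0.38 of that in MEF. The smallest fall of all marked Rab genes was that of Rab43, at a ratio of 0.765, with 0.154, 0.209, 0.118 and 0.23. Rab43 shares 84.3% of its body with the gene model Gm45140, and over its remaining bases the covered share was 84.6% in MEF and 86.2% in OSKM. Rab36 had 0.0783, 0.106, 0.0474 and 0.17, and its density in OSKM B12 was 2.17 times that in MEF.

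Among early endosome genes the 3 Rab5 paralogues, which drive endosome fusion, were marked throughout. Rab5b had densities of 0.345, 0.352, 0.164 and 0.377, Rab5a 0.325, 0.339, 0.137 and 0.331, and Rab5c 0.237, 0.288, 0.137 and 0.279. Their OSKM densities were within 0.137 to 0.164, and each returned in OSKM B12 to a level at or above that of MEF. Rab22a, which sorts cargo from early endosomes, fell further, with covered shares of 64.2%, 65.8%, 30.5% and 70.6% and densities of 0.358, 0.41, 0.145 and 0.461. Rab21, known from integrin traffic, had 0.361, 0.385, 0.185 and 0.405. This group had the lowest median change from MEF to OSKM among the groups with over 3 marked genes, −0.84 on the log2 scale.

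The recycling and exocytosis group held the next highest Rab genes. Rab8a, which acts in exocytosis and at the cilium, had densities of 0.507, 0.636, 0.358 and 0.691. Rab35, a Rab of fast recycling, had 0.483, 0.605, 0.341 and 0.697. Rab4b, of the same route, had 0.477, 0.592, 0.308 and 0.668. In all 3 the density rose from OSKM to MEF, to MEF B12 and to OSKM B12, and peaks covered at least 54.6% of the body in every library.

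The slow recycling Rabs of the Rab11 pair were less covered and changed more. Rab11a had covered shares of 49.2%, 53.8%, 21.3% and 52.6% and densities of 0.258, 0.328, 0.0881 and 0.293. Rab11b had covered shares of 38.3%, 43.4%, 22.1% and 52.2% and densities of 0.228, 0.308, 0.108 and 0.366. Rab25, the epithelial member of this branch, differed in form as well as in level. Its covered shares were 11.5%, 13.2%, 0% and 9.96%, worth 28 to 34 estimated tags where it had peaks. Its peaks lay within the first 1.55 kb of the body. They ran past its start by 940, 1500 and 1172 bases in MEF, MEF B12 and OSKM B12. The nearest gene upstream, Lamtor2, lies 1518 bases away on the same strand. Lamtor2 held no peak in MEF, MEF B12 or OSKM and was covered to 8.76% in OSKM B12. Whether the peaks of Rab25 belong to Lamtor2 was not tested. Rab4a had covered shares of 50.4%, 43.6%, 34.1% and 48.1%, but it lies wholly within the gene model Gm20388, so that its peaks cannot be assigned to it alone.

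Late endosome and lysosome genes held the largest rise from OSKM to OSKM B12, that of Rab29. Rab7, the main Rab of late endosomes, had densities of 0.238, 0.315, 0.13 and 0.31, and Rab7b 0.256, 0.27, 0.151 and 0.352. Rab29, which recruits the kinase LRRK2, had covered shares of 31.6%, 50.1%, 2.74% and 42.8% and densities of 0.144, 0.2, 0.0107 and 0.219. In OSKM a single peak over its last exon remained, worth an estimated 7 tags, against 90 in MEF and 126 in OSKM B12. Rab32, of lysosome-related organelles, had covered shares of 9.87%, 14.8%, 2.17% and 32.3%, with densities of 0.0494, 0.0756, 0.00847 and 0.133. Its peak in OSKM overlapped no peak of MEF. Rab24, linked to autophagy, was the exception in OSKM B12, with covered shares of 42.6%, 46.6%, 35.7% and 24.8%. It shares 70.2% of its body with Prelid1, and its density of 0.208, 0.267, 0.144 and 0.205 rested on 34 to 55 estimated tags. In OSKM B12 its only peak held 511 bases of the body and ran 30726 bases past the gene end. The pileup of that peak is thus an average over mostly other bases, so the OSKM B12 density and tags cannot be assigned to Rab24.

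Of the marked regulated secretion genes, Rab3a had densities of 0.421, 0.457, 0.275 and 0.568, and Rab3d 0.284, 0.336, 0.142 and 0.365. A single peak per library covered 60.4% to 73.1% of Rab3a and ran at least 181 bases past its end. Rab26, a Rab of secretory granules, had covered shares of 35.8%, 31.5%, 5.44% and 33.4% and densities of 0.183, 0.18, 0.0215 and 0.207. In OSKM only a stretch of intron 2 of Rab26 was in a peak, worth an estimated 16 tags against 133 in MEF.

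The last groups each held 1 marked gene. Rab23, which restrains hedgehog signalling, had the widest coverage of all Rab genes in MEF. Peaks covered 85.6%, 87.8%, 51.9% and 83.9% of its body, and its density was 0.51, 0.543, 0.243 and 0.58. In OSKM the mark was broken into 10 peaks where each other library had 3. Rab40c had densities of 0.171, 0.221, 0.0844 and 0.172. The other genes marked in all 4 libraries, Rab2b, Rab6a and Rab33b of the Golgi and Rab12, Rab13 and Rab14 of recycling and exocytosis, had densities of 0.118 to 0.323 in MEF, 0.131 to 0.388 in MEF B12, 0.0446 to 0.192 in OSKM and 0.146 to 0.383 in OSKM B12.

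**Figure D2:**
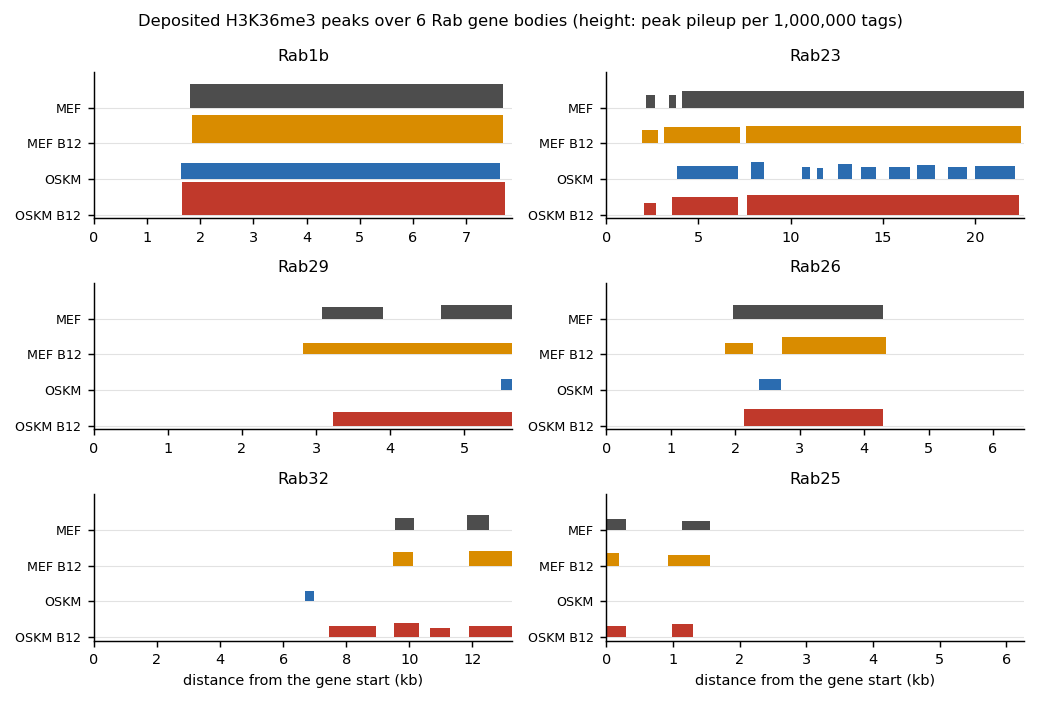
Deposited H3K36me3 peaks over 6 Rab gene bodies, with the distance from the gene start in kb on the x axis, 1 row per library, and the height of a block proportional to pileup per 1000000 tags on a scale common to all panels. Rab1b keeps 1 broad peak in every library, Rab23 splits into 10 peaks in OSKM, Rab29, Rab26 and Rab32 each have a single short peak in OSKM, that of Rab32 at a place with no peak in MEF, and Rab25 has none there.

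Across the set, peaks held less of the mark in the OSKM library than in the MEF library. The covered share was lower in 38 of 39 marked Rab genes (97.4%, beside 93.4% of all marked genes) and the density in 39 of 39 (100%, beside 96.8%). Without bases shared with other genes, the covered share was lower in 35 of 38 Rab genes (92.1%, beside 93.3% of all marked genes), Rab1b, Rab24 and Rab43 being the exceptions. The median log2 change in density was −0.68 over Rab genes and −0.70 over all marked genes, taken with a pseudocount of 0.05 that shrinks changes of low genes. It was −0.38 for Rab genes with a pseudocount of 0.2. Over peaks whose −log10 q reached 5 it was −1.69 for Rab genes and −1.83 for all marked genes, and the covered share was lower in 24 of 30 marked Rab genes (80%, beside 85.2% of all marked genes). A density at least 2-fold lower was found in 6 (15.4%, beside 18.5%) on that log2 scale. By the plain ratio of densities, with Rab25 counted although it is listed at 0 in OSKM, it was found in 20 (51.3%, beside 45.1%). On the log2 scale with the pseudocount the largest falls were −1.70 for Rab26, −1.67 for Rab29, −1.16 for Rab11a, −1.06 for Rab22a and −1.04 for Rab2a. The smallest on that scale were −0.28 for Rab43, −0.40 for Rab36, −0.41 for Rab24, and −0.44 for both Rab1b and Rab31. Genes of low density change place by the plain ratio. OSKM then held 0.26 of the MEF level over Rab31 (0.209 to 0.324, 95%), 0.215 over Rab30, 0.171 over Rab32 and 0.325 over Rab8b, below Rab2a and Rab22a at 0.38 and 0.406, and Rab36 stood at 0.606. It held 0.341 of the MEF level over Rab11a (0.293 to 0.396) and 0.718 over Rab1b (0.632 to 0.815). Both were picked by the size of their falls, so their ranges are not compared. Over bases in peaks in all 4 libraries, the pileup ratio was 0.799 for Rab11a and 0.704 for Rab1b, the other way round. By the plain ratio Rab26 stood at 0.117 (0.0701 to 0.197) and Rab29 at 0.0749 (0.0348 to 0.161). Such ratios of genes whose peaks nearly vanish depend on the calling limit.

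Peaks held more of the mark in the OSKM B12 library than in OSKM, a comparison that uses the same OSKM library. The covered share was higher in 38 of 39 marked Rab genes (97.4%, beside 96.5%), Rab24 being the exception, and the density in 39 of 39 (100%, beside 98.8%). The median log2 change was 0.98 over Rab genes and 0.98 over all marked genes. Over the stricter peaks it was 2.26 and 2.49, and with a pseudocount of 0.2 it was 0.65 over Rab genes. A density at least 2-fold higher was found in 18 (46.2%, beside 46.2%) on that scale and in 33 by the plain ratio (84.6%, beside 78%). The largest rises with the pseudocount were 2.15 for Rab29, 1.85 for Rab26, 1.64 for Rab32, 1.40 for Rab11b and 1.38 for Rab22a. By the plain ratio Rab31 (5.92), Rab8b (4.34), Rab36 (3.58) and Rab30 (3.46) rose more than Rab11b (3.39). Rab29 was 20.4 times as dense in OSKM B12 as in OSKM, with a wide range of 9.54 to 43.5 from the few tags in OSKM. Rab1b was 1.98 times as dense (1.76 to 2.24). Peaks covered 2.74% of Rab29 in OSKM and 42.8% in OSKM B12, with other bases at 0. The ratio of Rab29 therefore depends on the calling limit. Over bases in peaks in all 4 libraries, Rab1b had the larger rise. There the scaled pileup was 0.392 in OSKM and 0.512 in OSKM B12 for Rab29 (150 bases). For Rab1b it was 0.591 and 1.16 (5806 bases).

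Between MEF B12 and MEF the differences were small. The covered share was higher in MEF B12 than in MEF in 28 of 39 Rab genes (71.8%, beside 70.5%) and the density in 36 (92.3%, beside 90.5%). The median log2 change was 0.24 over Rab genes and 0.21 over all marked genes. It was 0.10 over Rab genes with the pileup not scaled to the tag total and 0.15 with a pseudocount of 0.2. Over the stricter peaks 18 of 30 Rab genes had the higher covered share in MEF B12 (60%, beside 67.3%). No Rab gene changed 2-fold, either with the pseudocount (0 of 39, beside 1.53%) or by the plain ratio (0 of 39, beside 4.97%).

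**Figure D3:**
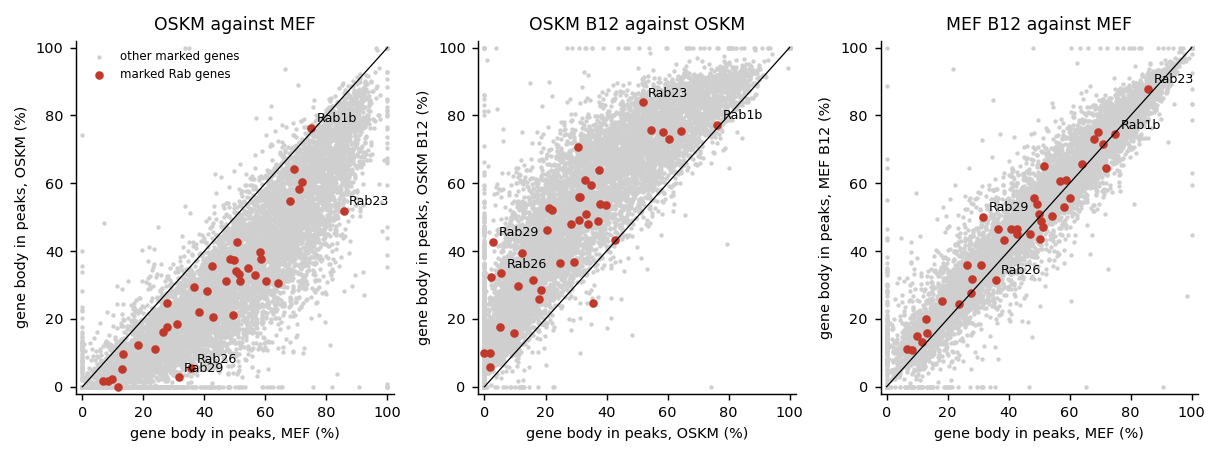
Share of the gene body in peaks in pairs of libraries (both axes in percent), for the 39 marked Rab genes (red) and the other marked genes (grey), with the line of equal shares. In the left panel all Rab genes but Rab1b lie below the line, in the middle panel all but Rab24 lie above it, and in the right panel they lie along it.

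With vitamin B12 in both, no Rab gene differed 2-fold between OSKM B12 and MEF B12, with the pseudocount (0 of 39, beside 1.79%) or by the plain ratio (0 of 39, beside 4.77%). The covered share was lower in OSKM B12 than in MEF B12 in 17 of 39 (43.6%, beside 46.9%) and the density in 17 of 39 (43.6%, beside 37.4%). The median log2 change was 0.07 over Rab genes and 0.05 over all marked genes. By the plain ratio Rab30 stood lowest, at 0.518 of the MEF B12 level (0.448 to 0.6), and Rab32 highest, at 1.75 times that level (1.37 to 2.24). Against MEF, OSKM B12 had a higher covered share in 26 Rab genes (66.7%, beside 71%) and a higher density in 36 (92.3%, beside 90.9%).

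**Figure D4:**
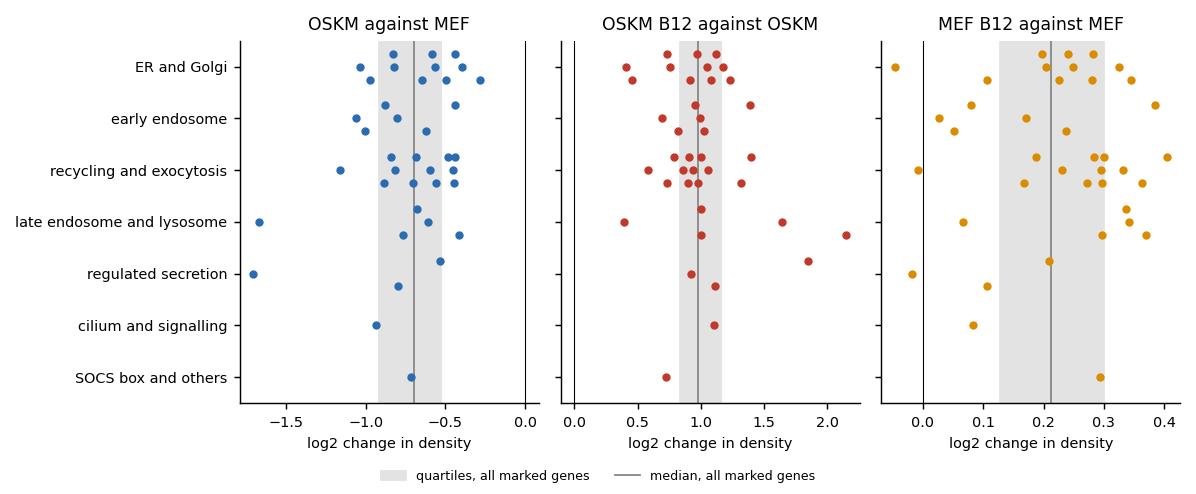
Log2 change in density of each marked Rab gene (points, by role) for OSKM against MEF, OSKM B12 against OSKM and MEF B12 against MEF, with the quartiles (grey band) and median (grey line) of all 9619 marked genes. The median of all marked genes is at −0.70, 0.98 and 0.21 in the 3 panels, and Rab26 and Rab29 stand farthest out in the first 2 panels, with Rab29 at 2.15 in the second.

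Both the bases in peaks and the mean pileup of the peaks differed. Of 388 kb of Rab gene bodies in MEF peaks, 56.7% were also in OSKM peaks (58% over all marked genes), while 92.5% of the 238 kb in OSKM peaks were also in MEF peaks. Of the 168 kb that OSKM lacked, 74% were in a peak in OSKM B12 (76.2% over all marked genes). Over the 209 kb in peaks in all 4 libraries, which lay in 36 Rab genes, the scaled pileup was 0.638, 0.729, 0.483 and 0.759 in the 4 libraries. Each base took the mean pileup of its whole peak, which can reach beyond these bases. Height on the shared bases alone was therefore not measured, and width and height are not fully separated. By this measure OSKM was lower than MEF in 35 of 36 genes (97.2%, beside 96.8% of all genes), with Rab30 at a ratio of 1.08 the exception. OSKM B12 was higher than OSKM in 36 of 36 (100%, beside 99.2%). The ratio of OSKM to MEF was 0.758 over the Rab bases and 0.754 over those of all genes.

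The mark lay toward the end of Rab genes. In MEF the first 20% of the body was covered to 7.81% and the last 20% to 70.2%. In MEF B12 the values were 8.7% and 74.3%, in OSKM 2.58% and 50.9%, and in OSKM B12 9.24% and 74%. The ends differed by a factor of 8.98, 8.54, 19.8 and 8.01 over Rab genes, against 5.47, 5.14, 7.1 and 4.94 over all marked genes. When the body was cut into 20 equal bins, coverage was highest in bin 16 for Rab genes in each library and in bin 19 for all marked genes. The end of the gene lay in a peak in 22, 23, 16 and 22 of the 39 Rab genes. These shares of 56.4%, 59%, 41% and 56.4% stood beside 63.2%, 66.7%, 41.9% and 65.1% of all marked genes. Exon bases were covered to 64.9%, 65.8%, 45.5% and 66.6%, and intron bases to 31.2%, 34.3%, 18.4% and 34.3%. Over all marked genes exon bases stood at 67.4%, 70.2%, 49.1% and 69.7%, and intron bases at 36.3%, 39.2%, 21.8% and 39.2%. Rab25 was the exception in form, being more covered at its start in the 3 libraries where it had peaks. Rab3d was also more covered at its start in MEF B12.

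**Figure D5:**
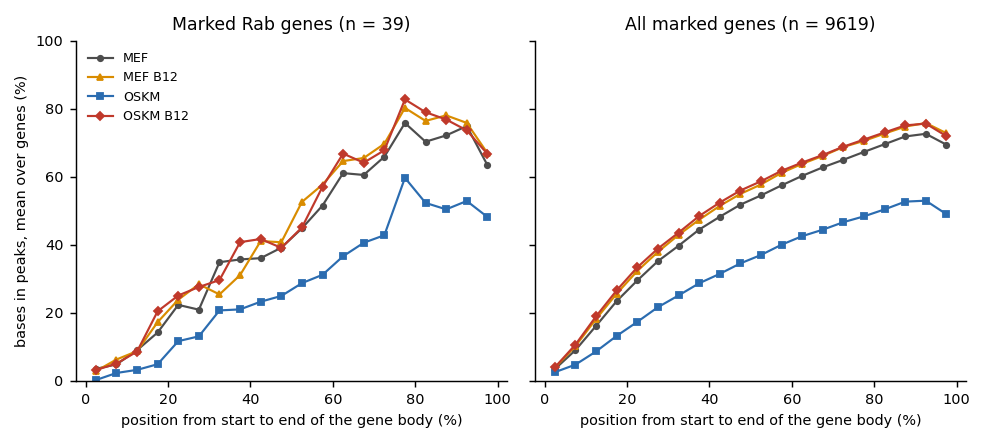
Mean share of bases in peaks (y axis, percent) in 20 bins from the start to the end of the gene body (x axis, percent of the body) for the 39 marked Rab genes (left) and all 9619 marked genes (right), 1 line per library. Coverage of Rab genes in MEF climbs from 3.44% in the first bin to 75.8% in bin 16 and ends at 63.4%, and the OSKM line lies below the others throughout.

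The Rab genes marked in some libraries only were 8, with 39 marked in at least 1 library and 31 in all 4. Over all genes 9619 were marked in at least 1 library and 7433 in all 4. Rab10, which brings the glucose transporter GLUT4 to the surface, had covered shares of 13.2%, 15.8%, 9.65% and 15.8% and lay just below the limit in OSKM. Rab8b, a paralogue of Rab8a, had 12.9%, 20.1%, 5.19% and 17.5%. Rab30 had 8.48%, 10.7%, 1.68% and 5.93%, and Rab31 6.61%, 11.1%, 1.72% and 9.91%, so both passed the limit in MEF B12 alone. Rab25, Rab26, Rab29 and Rab32 were given above. None of the 8 was marked in OSKM, and all but Rab10 had at most 5.44% of the body covered there. Absence from OSKM was general, since of all 7514 genes marked in OSKM 7433 were marked in all 4 libraries. Rab10, Rab8b, Rab30 and Rab31 have long bodies, 62.5 kb to 121 kb.

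The genes that load, anchor, switch off or read Rab proteins were described from a list of 110, of which 108 were found. Of these, 86 (79.6%, beside 46.4% of all genes) were marked in at least 1 library. All 5 marked genes of 6 for escort and prenylation were marked in every library. They include Rabggtb, a subunit of the Rab geranylgeranyl transferase, with densities of 0.638, 0.68, 0.366 and 0.753, and Gdi2, a GDP dissociation inhibitor, with 0.376, 0.436, 0.164 and 0.427. Marked were 34 of 38 exchange factors, 22 of 30 GAPs and 25 of 34 effectors. Ccz1, part of the exchange factor for Rab7, had 0.663, 0.793, 0.405 and 0.818. Of the 86, all had a lower density in OSKM than in MEF (100%, beside 96.8% of all marked genes). Of them 8 were at least 2-fold lower on the log2 scale with the pseudocount (9.3%, beside 18.5%). A higher density in OSKM B12 than in OSKM was found in 85 (98.8%, beside 98.8%), 39 of them at least 2-fold (45.3%, beside 46.2%). The median change from MEF to OSKM was −0.75 for exchange factors, −0.72 for effectors, −0.59 for escort and prenylation genes and −0.50 for GAPs, beside −0.70 for all marked genes.

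On the X chromosome, outside the set, Rab9 had covered shares of 23%, 23.4%, 1.71% and 28.6%, and Rab33a, Rab39b and Rab9b were at 0 in all 4 libraries.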

How the data were processed

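The samples were 4 H3K36me3 ChIP–seq libraries from i4F MEFs and their 4 inputs, 1 pair per condition, grouped by their labels. Before deposition the authors aligned reads of 75 bases to mm10 with Bowtie 0.12.9, removed duplicates and called broad peaks with MACS2 2.2.6, in each library against its own input, with q-value cut-offs of 0.05 (strong) and 0.1 (broad). The deposited pileup, a signal, counts extended fragments over the average base of a peak. The deposited fold enrichment is a ratio that sets this pileup over the level of the input nearby. Significance was deposited as the −log10 of p-values and q-values. Signal outside peaks was not used here, so a weak region counts as 0. Fold enrichment and −log10 q served only as filters.

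Gene bodies came from GENCODE M21, on the same build. Pileup was scaled to 1000000 tags of its library. Covered shares, densities and log2 changes were computed with Python 3.11 and numpy 2.4.6, and the interval arithmetic was tested on simulated data. Tags were estimated from density, length and the fragment length, and the 95% ranges of ratios follow from them as Poisson counts. The G3 box was sought by translating the coding exons and matching its 6 residues with allowance for the known substitutions. Sequences were read from GRCm38.p6, indexed with samtools 1.23.1. With 1 library per condition no test was run. The depth, 29046913 to 33399267 tags, limits which enrichments could be called, and intervals leave out variation between cultures and immunoprecipitations.

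The members, role groups and the list of Rab regulators were chosen with earlier results of these data known. Every Rab gene was accounted for, and values were given for the 3 highest mean densities per role group, the 5 largest and smallest falls from MEF to OSKM, the 5 largest rises to OSKM B12, genes marked in some libraries only and those next to the limit. Values of Rab1a, Rab4a, Rab5a and Rab5c, outside this rule, were added after seeing the data. Alternatives were a −log10 q of at least 5, a fold enrichment of at least 2, the whole gene extent, bases outside other genes, a limit of 25%, peaks within 1 kb merged, other scalings and a pseudocount of 0.2. Plain ratios of density without a pseudocount were added after seeing the data.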

Additional observations from a re-analysis of the deposited data

Results flagged for a closer look

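Over 3 of the 39 marked Rab genes (7.69%, beside 8.88% of all marked genes) the density with vitamin B12 was lower in MEF and higher in OSKM, and this difference between the 2 backgrounds was not tested. For Rab26 the log2 change with vitamin B12 was −0.02 in MEF and 1.85 in OSKM, a difference of 1.86. For Rab4a the changes were −0.01 and 0.91, a difference of 0.914. For Rab34 they were −0.05 and 0.46, a difference of 0.503. The changes in MEF were all within 0.05 of 0. The peaks of Rab4a also belong to Gm20388.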

How the results depend on the processing

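Of 58 recomputed values, 41 stayed within 1.5 times the count reported or within counting error of the median reported. A fold enrichment of at least 2 removed almost nothing, leaving 43.27% of all genes marked in MEF against 43.28%. Its unchanged values among the 41 therefore carry little. Keeping peaks whose −log10 q reached 5 moved the most: marked Rab genes came to 25 in MEF B12 and 5 in OSKM, 24 of 30 marked Rab genes had a lower covered share in OSKM than in MEF, 18 of 30 a higher one in MEF B12 than in MEF, and the median log2 changes were −1.69 for OSKM against MEF, 2.26 for OSKM B12 against OSKM and 0.28 for MEF B12 against MEF. With a pseudocount of 0.2 the same medians were −0.38, 0.65 and 0.15. Unscaled pileups gave 0.85 for OSKM B12 against OSKM and 0.10 for MEF B12 against MEF. By the plain ratio, an alternative chosen after seeing the data, 20 Rab genes were at least 2-fold lower in OSKM than in MEF and 33 at least 2-fold higher in OSKM B12 than in OSKM. Subtracting the median of all marked genes, which moves every gene alike, left 0.0167, 0.00355 and 0.028. The first and the second are within their counting errors of 0.0305 and 0.0299, so that their signs carry nothing. No paired analysis was possible because a condition had 1 library. Depth limits the genes with few tags, above all Rab29, Rab26, Rab32 and Rab25 in OSKM.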
